A study of Mus musculus with 16 samples.

Results

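Dkk3 and 8 further genes of WNT signalling were followed in tibialis anterior, a muscle of the lower hindlimb, of mice with and without UBR4 in skeletal muscle. The 9 genes are Dkk3 and Dkk2 of the dickkopf family, Sfrp1, Sfrp2, Sfrp4, Sfrp5 and Frzb of the secreted frizzled-related proteins, Wif1, and Axin2, out of 47643 genes in the table of expression values. Dkk3 was chosen by its measured level, because it was lower in 24-month-old UBR4 mKO than in WT muscle, so its values at 24 months are a description with no test. The other 8 genes are its named relatives and a reporter of the pathway. The samples were 16 muscles in 4 groups of 4, from mice labelled as male C57BL6/J: WT at 6 months, UBR4 mKO at 6 months, WT at 24 months and UBR4 mKO at 24 months. Every mouse carried Ubr4 fl/fl alleles and received tamoxifen. UBR4 mKO mice also carried a tamoxifen-inducible Cre under the ACTA1 promoter, which is active in skeletal muscle fibres, and WT mice were siblings with no Cre. Cells of a whole muscle other than fibres therefore kept Ubr4, and in such bulk samples fewer cells of a type and less RNA per cell cannot be told apart.

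WNT proteins are secreted lipid-modified ligands that bind frizzled receptors and the co-receptors LRP5 and LRP6, upon which β-catenin escapes degradation, enters the nucleus and acts with TCF and LEF factors on target genes. Secreted antagonists work outside the cell: dickkopf proteins such as DKK2 bind the LRP co-receptors, whereas frizzled-related proteins and WIF1 bind the WNT ligands themselves. DKK3 is a divergent dickkopf family member known in skeletal muscle as a secreted factor of aged tissue linked to atrophy.

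Expression was given as TPM (a length-scaled measure of transcripts), which divides the reads of a gene by its length and scales each sample to the sum of 1000000. TPM keeps no depth, so how many reads stand behind a value is unknown. All 9 genes were above 0 in all 16 samples, with means over the samples from 0.396 TPM for Sfrp1 to 6.65 TPM for Dkk3, and all 9 had a mean of at least 0.1 TPM, the minimum for testing, as did 14453 genes in all. Comparisons were made with limma on log2(TPM + 0.1), and genes with a Benjamini-Hochberg adjusted p under 0.05 over the genes tested are called changed. Adding 0.1 makes the changes of weakly expressed genes look smaller than they were. UBR4 mKO and WT were compared within each age and 24 with 6 months within each genotype, so comparisons share samples.

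Expression of most genes shifted together at 6 months. The median gene was 0.34 higher on the log2 scale in 6-month UBR4 mKO than in WT, and 0.26 higher in 24-month than in 6-month WT, but moved by 0.021 between genotypes at 24 months and by -0.05 with age in UBR4 mKO. Ubr4 ranged from 9.09 to 15.7 TPM in 6-month WT and from 4.91 to 6.54 TPM in 6-month UBR4 mKO, and from 17.0 to 21.1 TPM and 4.28 to 14.6 TPM at 24 months. Its log2 difference was -1.12 at 6 months, called (limma adjusted p = 0.00442), and -1.12 at 24 months, not called (limma adjusted p = 0.0611). The second 24-month UBR4 mKO sample, at 14.6 TPM, lay within the 6-month WT range. Genes typical of fast fibres summed to 53820 to 61690 TPM in 6-month WT, less than in any of the other 12 samples (65800 to 79030 TPM). Mitochondrial genes took up 52.6% to 59.7% of TPM in 6-month WT, 46.1% to 49.8% in 6-month UBR4 mKO and 46.3% to 51.7% at 24 months. A list of 9 genes of denervated or regenerating fibres summed to 21.2 to 31.3 TPM in 6-month WT and 62.3 to 76.8 TPM in 6-month UBR4 mKO, with 9 of 9 called higher, against 54.6 to 90.7 TPM in WT and 45.6 to 110 TPM in UBR4 mKO at 24 months. Leukocyte genes summed to 2.28 to 3.6 TPM and 7.96 to 24.8 TPM at 6 months, with 5 of 6 tested called higher (37.7% of all genes were), and to 4.63 to 9.37 TPM and 8.20 to 31.9 TPM at 24 months. The part of these shifts in the results at 6 months was not tested. The labelled sex was not borne out at 6 months. Xist, the RNA that coats the inactive X chromosome in female cells, was between 0.711 and 23.8 TPM in the 8 samples at 6 months and at most 0.0252 TPM in the 8 at 24 months. The Y-linked gene Ddx3y was at 2.29 to 13.3 TPM in 6-month WT, at 13.2 to 22.6 TPM in 3 UBR4 mKO samples of 6 months and at 0.073 TPM in the fourth, against 13.5 to 30.5 TPM at 24 months, and Eif2s3y, Kdm5d and Uty were likewise lowest in that sample. Each of the other 6-month samples held both Xist and Y-linked RNA, as in the second WT sample (Xist 13.0 TPM, Ddx3y 5.71 TPM). Whether libraries were mixed was not tested. Since Xist split the samples by age, no covariate can tell it apart from age. The fits were repeated with a covariate made from the Y-linked genes and without the fourth 6-month UBR4 mKO sample. Values from these fits are given beside several results.

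Dkk3 (chromosome 7, 112116017 to 112159057, minus strand of GRCm38) was lower in UBR4 mKO muscle already at 6 months, the comparison that its choice did not use. It was at 2.36, 2.52, 2.18 and 3.47 TPM in the 4 WT muscles and at 0.875, 0.831, 0.976 and 1.22 TPM in the 4 UBR4 mKO muscles. Each UBR4 mKO sample was thus below every WT sample. On the log2 scale the difference was -1.34 (standard error 0.35, 95% interval -2.08 to -0.59, limma adjusted p = 0.00904), or -1.68 relative to the median gene. Of all genes tested, 1.04% were called lower and 0.962% had the UBR4 mKO samples entirely below those of WT at 6 months. When each sample was scaled by the median ratio of its genes (median-of-ratios scaling), which takes out the shift of most genes, Dkk3 was at -1.67 (limma adjusted p = 0.00941), and 6.80% of all genes were called higher and 7.71% lower, in place of 37.7% and 1.04%. An exact two-sided permutation test of Dkk3 TPM gave p = 0.0286, the smallest that 4 against 4 samples allow, and 0.157 after adjustment over 33 such tests of the 9 genes. With the Y-linked covariate the difference was -1.29 (limma adjusted p = 0.0129), and without the fourth UBR4 mKO sample it was -1.44 (limma adjusted p = 0.0143). A pseudocount of 1 in place of 0.1 brought it to -0.87 (limma adjusted p = 0.0260). The rank test of Kruskal and Wallis with Dunn's comparison, by contrast, gave an adjusted p of 0.233.

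At 24 months, the comparison for which Dkk3 was picked, it was at 15, 13.0, 17.2 and 23.1 TPM in WT and at 7.10, 7.63, 7.21 and 1.67 TPM in UBR4 mKO muscles. The groups were apart, with the fourth UBR4 mKO sample far under the other 3. The mean fell from 17.1 ± 4.37 to 5.90 ± 2.83 TPM (SD, n = 4 each), a log2 difference of -1.70 (standard error 0.35), or -1.18 without that sample. The share of all genes called lower at 24 months was 0.235%, and 1.75% had the UBR4 mKO samples entirely below those of WT. As ratios of mean TPM, WT was 2.69-fold above UBR4 mKO at 6 months and 2.89-fold above it at 24 months. The UBR4 mKO effect at 24 months minus that at 6 months was -0.36 on the log2 scale and changed to 0.16 without the fourth 24-month UBR4 mKO sample.

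Between 6 and 24 months Dkk3 rose in either genotype, here too as a description. Mean TPM was 6.49-fold higher at 24 months in WT and 6.04-fold higher in UBR4 mKO, with log2 differences of 2.64 and 2.28 (standard error 0.35 each). With the Y-linked covariate these were 2.80 and 2.41, and without the fourth 6-month UBR4 mKO sample the latter was 2.38. No sample of 24-month WT overlapped with 6-month WT, and none of 24-month UBR4 mKO with 6-month UBR4 mKO, as for 21.8% and 4.33% of all genes that lay entirely higher. The order of the group means was 24-month WT, 24-month UBR4 mKO, 6-month WT and 6-month UBR4 mKO. Neighbours in this order were apart in every sample except 24-month UBR4 mKO and 6-month WT, since the fourth 24-month UBR4 mKO muscle lay below all 6-month WT muscles. Dkk3 was the most abundant of the 9 genes in both 24-month groups, while Frzb led in both 6-month groups.

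**Figure D1:**
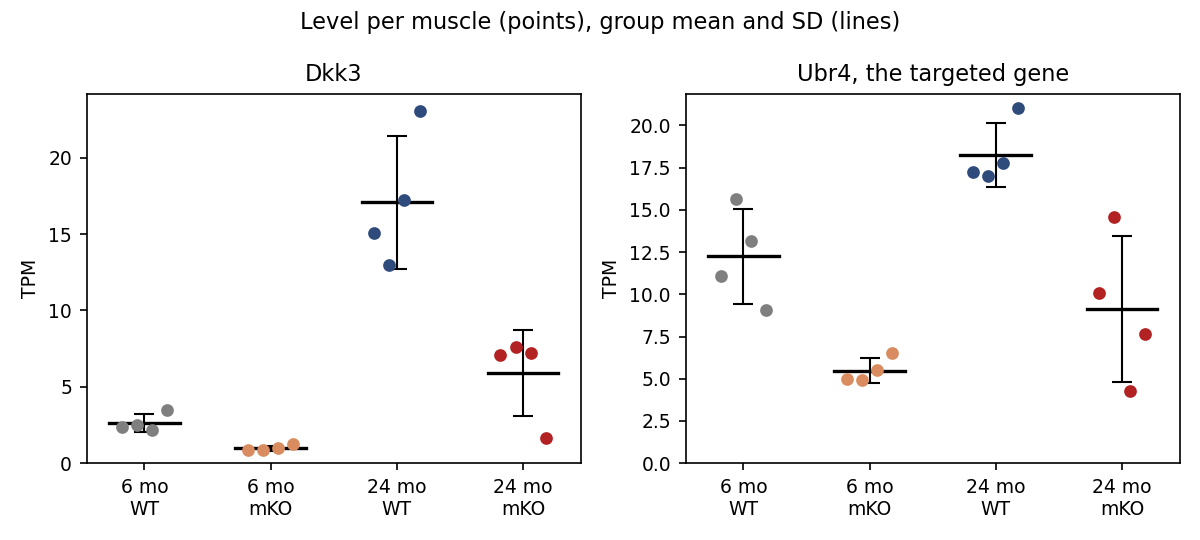
Dkk3 (left) and the targeted gene Ubr4 (right) in TPM on linear axes from 0, by group; points are the 4 muscles of a group, horizontal lines the mean and error bars the SD. The 6-month UBR4 mKO samples of Dkk3 sit between 0.831 and 1.22 TPM, below all WT samples of that age, and at 24 months 3 UBR4 mKO samples lie near 7 TPM with the fourth at 1.67 TPM.

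None of the other 8 genes was called changed between UBR4 mKO and WT at either age. With limma the count was 0 of 8 at 6 months and 0 of 8 at 24 months, also 0 at an unadjusted p under 0.05 in both (50.8% and 10.5% of all genes). Under median-of-ratios scaling 1 of the 8 was under that unadjusted p at 6 months (30.1% of all genes) and 0 at 24 months (13.2%). Dunn's comparison called 0 of the 8 at 6 months, where it called 2266 of all genes. It called 0 of all genes at 24 months and with age in either genotype, so it says nothing on single genes there. With the Y-linked covariate and without the fourth 6-month UBR4 mKO sample the limma count was 0 of 8 at 6 months too, where Sfrp1 stood at 0.51 and 0.67 (limma adjusted p = 0.138 and 0.0903). Over all genes tested 38.8% were called at 6 months and 0.595% at 24 months, where Ubr4 itself was not called. The difference between the 2 genotype effects was called for 0 of the 8 genes, against 3.51% of all genes, with 0 at an unadjusted p under 0.05, against 27.4%. Under median-of-ratios scaling 1 of the 8 was under that unadjusted p, against 16.9%. With age, by contrast, 3 of the 8 were called in WT (19.6% of all genes) and 1 of the 8 in UBR4 mKO (6.49% of all genes), with 3 at an unadjusted p under 0.05 (20.3% of all genes) in the latter.

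Dkk2 (chromosome 3, 132085292 to 132180304, plus strand), a dickkopf protein that binds LRP co-receptors, was far less abundant than Dkk3. It was at 0.369, 0.266, 0.277 and 0.323 TPM in 6-month WT and at 0.184, 0.364, 0.274 and 0.330 TPM in 6-month UBR4 mKO. At 24 months it was at 0.384, 0.562, 0.319 and 0.443 TPM in WT and at 1.89, 0.491, 0.369 and 0.346 TPM in UBR4 mKO. The groups overlapped at each age, and the first 24-month UBR4 mKO sample stood above all 15 others. The genotype differences were -0.09 (95% interval -0.84 to 0.66) at 6 months and 0.44 (-0.31 to 1.19) at 24 months on the log2 scale. Under median-of-ratios scaling the 6-month difference was -0.36, and without that first sample the 24-month difference was -0.060. The rise with age in UBR4 mKO, 0.88 (0.13 to 1.63), missed the threshold (limma adjusted p = 0.162) and was 0.39 without it. In WT the age difference was 0.35 (-0.40 to 1.10).

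**Figure D2:**
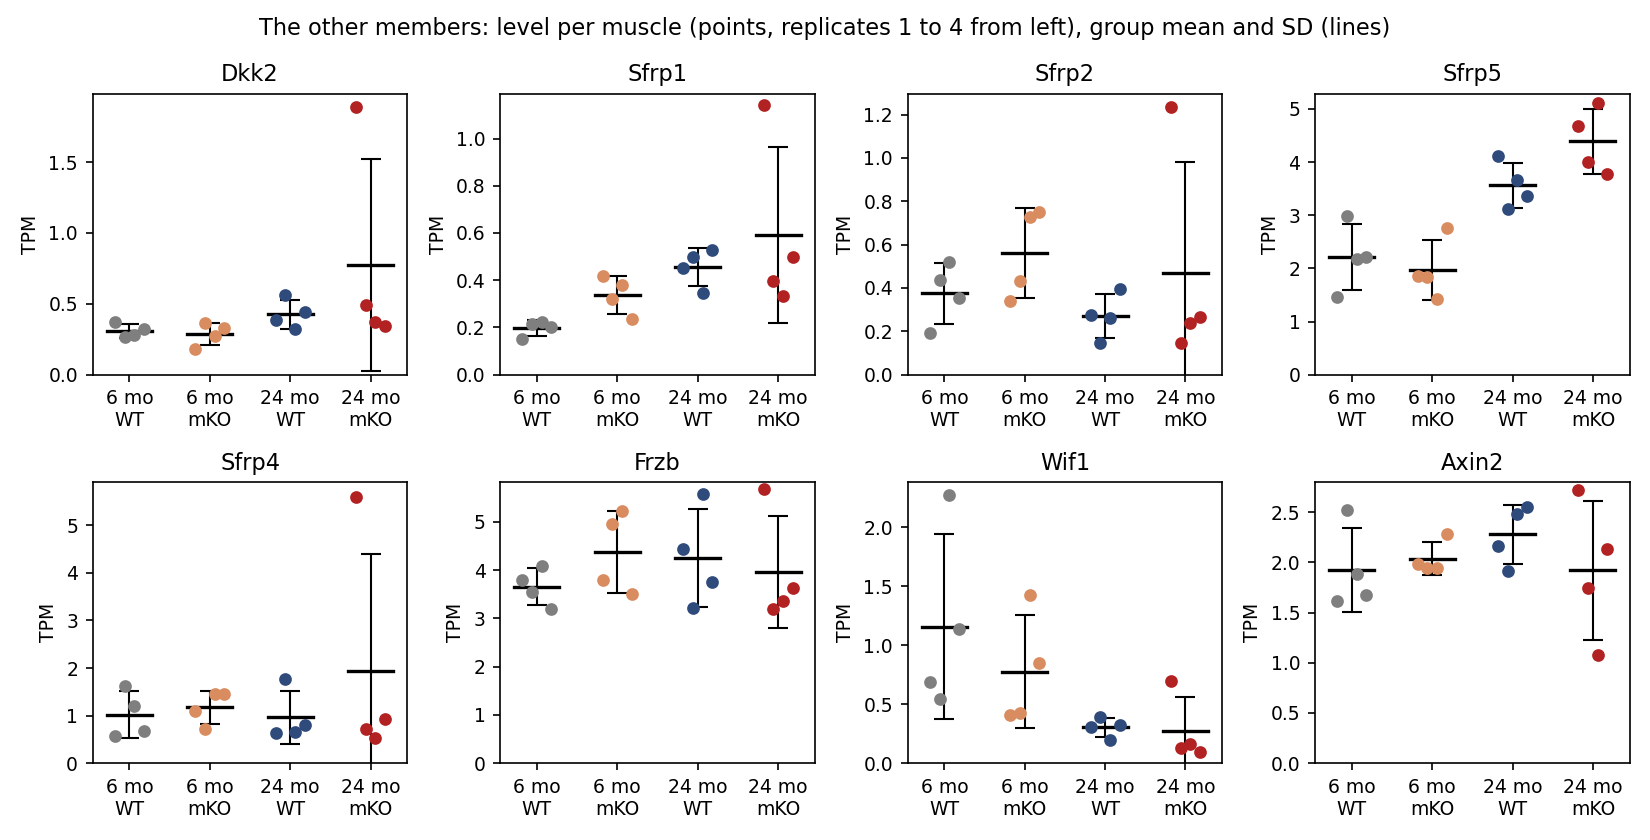
The 8 genes other than Dkk3 in TPM on linear axes from 0, by group; points are the 4 muscles, horizontal lines the mean and error bars the SD, cut off at 0 where the SD exceeds the mean. Sfrp5 is higher in all 24-month than in all 6-month muscles, Wif1 lower in all 24-month than in all 6-month WT muscles, and the first 24-month UBR4 mKO sample is the highest of its group for Dkk2, Sfrp1, Sfrp2, Sfrp4, Frzb, Wif1 and Axin2.

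For 6 of the 9 genes, a promoter of 300 bases, from 250 before to 50 after the start, was found in the RefSeq table for GRCm38.p6 (Dkk2, Sfrp2, Sfrp5, Frzb, Wif1 and Axin2). Those of Sfrp5 and Wif1 are shown because both genes were called with age in opposite directions, and that of Frzb because it was the only one with a match to a motif searched. Letters searched on both strands were CTTTGAA or CTTTGAT for TCF and LEF factors, CAGCTG for the E-box of myogenic factors and TGACTCA for AP-1. They occur in 8.65%, 16.3% and 5.20% of the 32851 promoters in the table. The Frzb match, an E-box, is in capitals. The RefSeq start of Frzb lies 229 bases inside the GENCODE span of the gene, so that most of its window is within the gene as GENCODE draws it, whereas that of Wif1 lies 44 bases inside and that of Sfrp5 at the edge of its span. A missing match says only that these letters are not in the window. G and C made up 61.3% of bases in Sfrp5 (chr19:42202203-42202502, minus strand), 63.0% in Wif1 (chr10:121033754-121034053, plus strand) and 64.7% in Frzb (chr2:80447347-80447646, minus strand), against a median of 52.7% over all promoters.
Sfrp5: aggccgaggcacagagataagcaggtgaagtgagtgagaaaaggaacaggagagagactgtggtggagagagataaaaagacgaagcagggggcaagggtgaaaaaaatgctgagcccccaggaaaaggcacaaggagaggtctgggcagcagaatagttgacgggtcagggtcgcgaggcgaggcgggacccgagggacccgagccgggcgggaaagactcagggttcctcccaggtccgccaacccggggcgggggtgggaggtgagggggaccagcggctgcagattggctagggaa
Wif1: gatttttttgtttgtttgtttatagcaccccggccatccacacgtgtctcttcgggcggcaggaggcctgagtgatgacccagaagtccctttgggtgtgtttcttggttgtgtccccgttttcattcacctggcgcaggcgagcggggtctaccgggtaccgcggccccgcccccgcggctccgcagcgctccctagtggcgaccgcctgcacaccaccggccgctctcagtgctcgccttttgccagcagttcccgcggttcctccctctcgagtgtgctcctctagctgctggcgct
Frzb: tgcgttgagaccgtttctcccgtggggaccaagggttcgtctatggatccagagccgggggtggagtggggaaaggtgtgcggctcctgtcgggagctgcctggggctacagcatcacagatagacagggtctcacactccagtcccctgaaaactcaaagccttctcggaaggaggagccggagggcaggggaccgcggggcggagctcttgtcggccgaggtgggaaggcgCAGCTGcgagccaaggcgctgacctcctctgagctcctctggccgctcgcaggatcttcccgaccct

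The frizzled-related proteins hold a cysteine-rich domain like that of the frizzled receptors. Sfrp5 (chromosome 19, 42197971 to 42202252, minus strand), known as an antagonist of WNT5A from adipose tissue, rose with age in both genotypes. It was at 1.46, 2.99, 2.18 and 2.22 TPM in 6-month WT and at 4.11, 3.12, 3.65 and 3.36 TPM in 24-month WT. In UBR4 mKO it was at 1.85, 1.83, 1.43 and 2.76 TPM at 6 months and at 4.67, 4.00, 5.11 and 3.77 TPM at 24 months. All 24-month samples were above all 6-month samples, as for 21.8% of all genes in WT and 4.33% in UBR4 mKO. With age the log2 difference was 0.69 in WT (standard error 0.20, limma adjusted p = 0.0252) and 1.14 in UBR4 mKO (standard error 0.20, limma adjusted p = 0.00234). Called higher with age were 18.6% of all genes in WT and 2.46% in UBR4 mKO.

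The UBR4 mKO call of Sfrp5 was lost only with Dunn's comparison (adjusted p = 0.336), which called 0 of all genes with age in either genotype. With the Y-linked covariate the rises were 0.94 in WT (limma adjusted p = 0.00557) and 1.35 in UBR4 mKO (limma adjusted p = 0.000432). Without the fourth 6-month UBR4 mKO sample the latter was 1.31 (limma adjusted p = 0.000947). The WT call of Sfrp5 was lost under median-of-ratios scaling, with a difference of 0.43 (limma adjusted p = 0.187), when the mitochondrial genes were left out, with 0.52, and with Dunn's comparison (adjusted p = 0.247). It was also lost without replicate 1 (0.63) or 4 (0.72) of 24-month WT or replicate 1 (0.52), 3 (0.70) or 4 (0.71) of 6-month WT. Between genotypes Sfrp5 differed by -0.16 (95% interval -0.58 to 0.26) at 6 months and 0.29 (-0.13 to 0.71) at 24 months. Under median-of-ratios scaling the 6-month difference was -0.50 and not called.

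Sfrp1 (chromosome 8, 23411502 to 23449632, plus strand), which binds WNT ligands, was the least abundant of the 9 genes by its mean over the samples. It was at 0.152, 0.215, 0.224 and 0.200 TPM in 6-month WT and at 0.420, 0.319, 0.380 and 0.235 TPM in 6-month UBR4 mKO. The UBR4 mKO samples lay entirely above those of WT at 6 months, as for 35.8% of all genes, but the difference of 0.55 (95% interval -0.02 to 1.11) missed the threshold (limma adjusted p = 0.110). It was called with array weights (0.67, limma adjusted p = 0.0175), with only the 6-month groups in the fit (0.55, limma adjusted p = 0.0491) and without the first 24-month UBR4 mKO sample (0.55, limma adjusted p = 0.0367), which enters through the shared spread.

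At 24 months Sfrp1 was at 0.452, 0.497, 0.346 and 0.528 TPM in WT and at 1.14, 0.396, 0.332 and 0.500 TPM in UBR4 mKO. These groups overlapped, with a difference of 0.20 (-0.37 to 0.77), or -0.13 without the first UBR4 mKO sample. All 24-month WT samples were above all 6-month WT samples, as for 21.8% of all genes. The age difference in WT was 0.89 (standard error 0.27, limma adjusted p = 0.0302), and 18.6% of all genes were called higher. The call of Sfrp1 did not hold with the Y-linked covariate (0.75, limma adjusted p = 0.0941), median-of-ratios scaling (0.70), without mitochondrial genes (0.87), with a pseudocount of 1 (0.28) or with Dunn's comparison (adjusted p = 0.136), which called 0 of all genes there. Leaving out replicate 1 (0.89), 2 (0.86) or 4 (0.83) of 24-month WT, or replicate 1 (0.82), 3 (0.94) or 4 (0.90) of 6-month WT, ended it as well. In UBR4 mKO the age difference was 0.55 (-0.02 to 1.11).

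Frzb (chromosome 2, 80411970 to 80447625, minus strand), also known as SFRP3, varied little. It was at 3.79, 3.54, 4.09 and 3.19 TPM in 6-month WT, and at 3.79, 4.97, 5.23 and 3.51 TPM in 6-month UBR4 mKO. At 24 months it was at 4.44, 3.22, 5.57 and 3.75 TPM in WT and at 5.69, 3.20, 3.35 and 3.62 TPM in UBR4 mKO. All 4 groups overlapped. Differences ranged from -0.16 with age in UBR4 mKO to 0.24 between genotypes at 6 months, and the latter, with an interval of -0.17 to 0.65, was -0.11 under median-of-ratios scaling.

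Sfrp4 and Sfrp2 were set apart by single samples. Sfrp4 (chromosome 13, 19623104 to 19632994, plus strand), a secreted WNT antagonist of connective tissue, was at 0.567 to 1.63 TPM in 6-month WT and at 0.715 to 1.45 TPM in 6-month UBR4 mKO. It was at 0.627, 1.78, 0.646 and 0.796 TPM in 24-month WT and at 5.6, 0.708, 0.535 and 0.919 TPM in 24-month UBR4 mKO. The groups overlapped, and the first 24-month UBR4 mKO sample was 6.10-fold above the next of its group. With intervals as wide as -0.87 to 1.37 at 6 months (difference 0.25) and -0.69 to 1.55 at 24 months (difference 0.43), the data leave large changes of either sign possible. The 24-month difference was -0.28 without that sample.

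Sfrp2 (chromosome 3, 83766321 to 83774316, plus strand), a frizzled-related protein made by fibroblasts, was at 0.193 to 0.520 TPM in 6-month WT, 0.341 to 0.750 TPM in 6-month UBR4 mKO and 0.147 to 0.395 TPM in 24-month WT. In 24-month UBR4 mKO it was at 1.23, 0.144, 0.238 and 0.265 TPM, again highest in the first sample. Groups overlapped throughout. Between genotypes it differed by 0.48 (95% interval -0.40 to 1.36) at 6 months and by 0.32 (-0.57 to 1.20) at 24 months, and the latter was -0.21 without that sample. Exons of Sfrp2 lie across from the antisense gene Gm26771, and those of Axin2 across from Gm11670. The sources differ on the library kit and do not state the use of strand, so reads of such partners cannot be told apart.

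Wif1 (chromosome 10, 121033960 to 121100650, plus strand), a secreted protein that binds WNT ligands through its WIF domain, went down with age in WT. It was at 0.684, 0.542, 2.27 and 1.13 TPM in 6-month WT and at 0.303, 0.392, 0.195 and 0.326 TPM in 24-month WT. All 24-month WT samples were below all 6-month WT samples, as were 1.81% of all genes. The log2 difference was -1.47 (limma adjusted p = 0.0350, standard error 0.46), and 1.08% of all genes were called lower. With a pseudocount of 1 the difference was -0.66, and without mitochondrial genes -1.78. In UBR4 mKO it was at 0.411, 0.421, 1.43 and 0.847 TPM at 6 months and at 0.698, 0.128, 0.158 and 0.0978 TPM at 24 months. The UBR4 mKO ages overlapped through the first 24-month sample, and the difference of -1.34 (95% interval -2.31 to -0.37, limma adjusted p = 0.0968) was -1.80 and called (limma adjusted p = 0.0178) without it. Wif1 and Sfrp5 thus went opposite ways with age in WT, whereas their genotype differences were not called. Those of Wif1 were -0.48 (-1.45 to 0.49) at 6 months and -0.35 (-1.32 to 0.62) at 24 months. Under median-of-ratios scaling the 6-month one was -0.80. With 1 sample left out they ran from -0.80 to -0.11 at 6 months and from -0.81 to -0.14 at 24 months. The -0.81 was without the first 24-month UBR4 mKO sample.

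The WT age call of Wif1 was lost with the Y-linked covariate (-1.26, limma adjusted p = 0.10), with no filter on low values (limma adjusted p = 0.0623) and with Dunn's comparison (adjusted p = 0.169), which called 0 of all genes there. It was lost as well without replicate 1 (-1.48), 3 (-1.33) or 4 (-1.51) of 24-month WT, or replicate 3 (-1.10) or 4 (-1.42) of 6-month WT. The muscle highest in Wif1 in each group was also the one of its group with the most RNA of a list of 8 tenocyte genes, cells of the tendon. The list summed to 190 TPM in the third 6-month WT sample, where Wif1 was at 2.27 TPM, and to 266 TPM in the third 6-month UBR4 mKO sample, where it was at 1.43 TPM. In 24-month UBR4 mKO all 4 samples had the same order in both, whereas in 6-month WT the second sample was lowest in Wif1 (0.542 TPM) with a sum next to the highest (140 TPM). The sums ranged from 89.7 to 190 TPM in 6-month WT, 132 to 266 TPM in 6-month UBR4 mKO, 90.4 to 158 TPM in 24-month WT and 68.1 to 106 TPM in 24-month UBR4 mKO. Of the 8 tenocyte genes, all tested, 1 was called lower with age in WT (1.08% of all genes), 5 lower with age in UBR4 mKO (4.03%) and 1 higher in 6-month UBR4 mKO than in WT (37.7%). The part of tendon RNA in the Wif1 result was not tested.

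Axin2 (chromosome 11, 108920349 to 108950783, plus strand) acts inside the cell as a scaffold of the β-catenin destruction complex and is itself a widely used target gene of canonical WNT signalling. It was at 1.61, 2.52, 1.89 and 1.68 TPM in 6-month WT and at 1.98, 1.94, 1.94 and 2.28 TPM in 6-month UBR4 mKO. At 24 months it was at 2.17, 1.92, 2.48 and 2.55 TPM in WT and at 2.72, 1.75, 1.08 and 2.13 TPM in UBR4 mKO. All groups overlapped with each other. Axin2 differed between genotypes by 0.10 (95% interval -0.35 to 0.54) at 6 months and by -0.30 (-0.74 to 0.15) at 24 months, so the intervals reach from a change of -0.74 to one of 0.54. Under median-of-ratios scaling the 6-month difference was -0.24 (limma adjusted p = 0.348). With 1 sample left out, Axin2 ran from 0.022 to 0.23 between genotypes at 6 months and from -0.48 to -0.061 at 24 months. Its age differences were 0.24 (-0.20 to 0.69) in WT and -0.15 (-0.59 to 0.30) in UBR4 mKO.

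**Figure D3:**
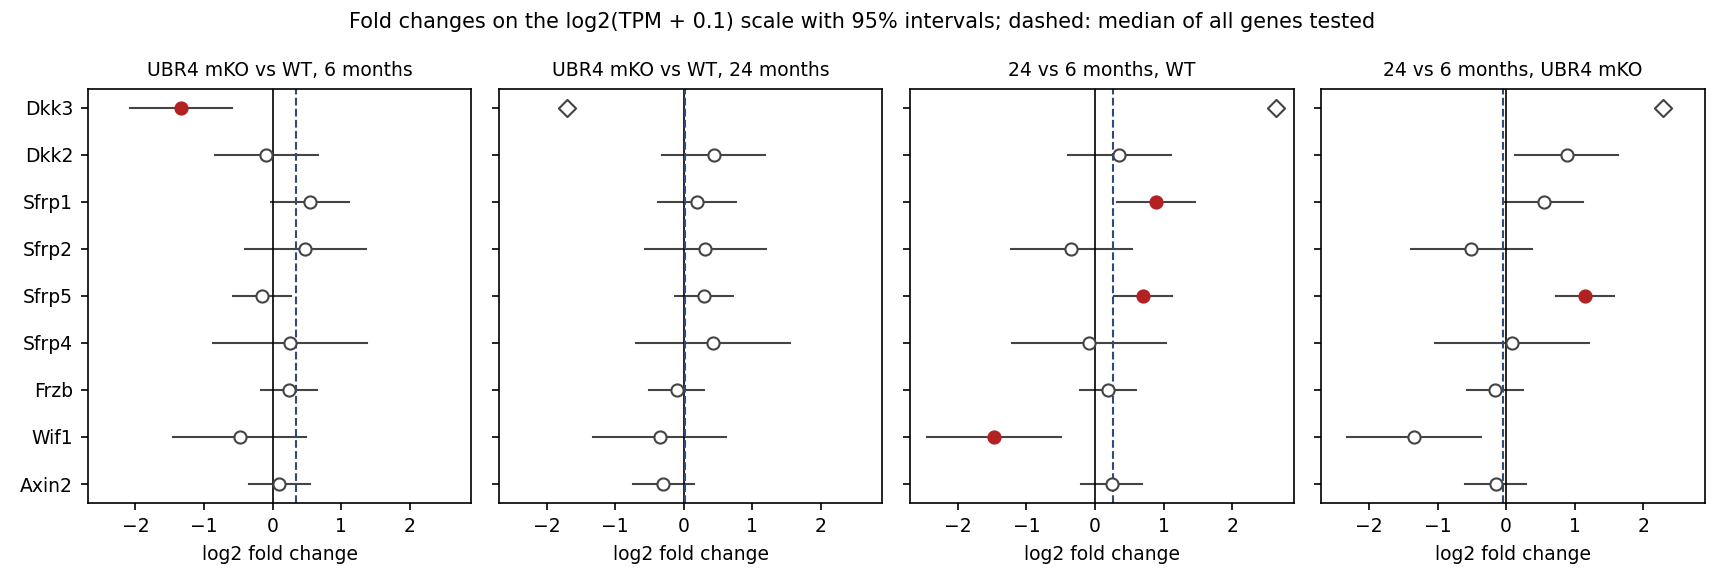
Log2 fold changes of the 9 genes on the log2(TPM + 0.1) scale (points) in 4 comparisons, with 95% intervals (bars) for tested values; filled red points are called by limma, diamonds without bars are Dkk3 values given as a description, and the dashed line is the median of all genes tested. Dkk3 is the 1 gene called between genotypes at 6 months, at -1.34, and Sfrp1, Sfrp5 and Wif1 are called with age in WT at 0.89, 0.69 and -1.47.

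The first 24-month UBR4 mKO sample, highest of its group in 7 of the 9 genes, also held the largest sum of 12 genes of fibro-adipogenic cells, the connective tissue cells of muscle. The list summed to 638 TPM there, against 365 to 441 TPM in the other 3 samples of the group and 267 to 605 TPM in the other groups. All 12 of the genes were tested in every comparison, with 7 called higher between genotypes at 6 months (37.7% of all genes) and 0 called at 24 months (0.595%). The same sample was highest of its group in the sums of adipocyte genes (410 TPM, others 314 to 378 TPM), tenocyte genes (106 TPM, others 68.1 to 77.2 TPM) and slow-fibre genes (114 TPM, others 55.2 to 66.3 TPM). It was lowest in those of satellite cells (21.9 TPM, others 24.9 to 30.2 TPM) and of denervated or regenerating fibres (45.6 TPM, others 50.3 to 110 TPM). Slow-fibre sums in the other groups were 106 to 193 TPM in 6-month WT, 101 to 219 TPM in 6-month UBR4 mKO and 67.2 to 89.7 TPM in 24-month WT. The 24-month differences of Dkk2, Sfrp1, Sfrp2 and Sfrp4 all changed sign without this sample, and the part of these cell types in them was not tested. Dkk3 and Sfrp5 were not at their highest in it.

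The rest of the WNT pathway was described from lists of its genes. Of 8 other secreted antagonists and relatives only Sostdc1, a secreted antagonist of WNT and BMP signalling, was abundant enough for testing. Its genotype differences were -0.54 at 6 months (limma adjusted p = 0.145) and -0.48 at 24 months (limma adjusted p = 0.632), and it was not called in any comparison. Of 19 WNT ligands 7 were tested. Wnt4, a ligand made by muscle fibres, went down in 6-month UBR4 mKO and up with age, as did Dkk3. It was at 7.13, 6.16, 5.06 and 4.85 TPM in 6-month WT and at 2.5, 4.23, 2.95 and 4.84 TPM in 6-month UBR4 mKO. The 24-month levels were 9.71, 9.38, 7.97 and 11.8 TPM in WT and 7.19, 5.68, 7.69 and 6.79 TPM in UBR4 mKO. The genotypes did not overlap at either age, by a narrow margin at 6 months (0.962% and 1.75% of all genes lay entirely lower). The 6-month difference was -0.69 (limma adjusted p = 0.0107, with 1.04% of all genes called lower). It was -0.65 with the Y-linked covariate and -0.84 without the fourth UBR4 mKO sample, and called in both. The 24-month difference, -0.49, was not called (limma adjusted p = 0.320). With age Wnt4 rose by 0.74 in WT (limma adjusted p = 0.0148, 18.6% of all genes called higher) and by 0.93 in UBR4 mKO (limma adjusted p = 0.0063, 2.46%). With the Y-linked covariate these were 0.90 and 1.07, and without the fourth 6-month UBR4 mKO sample the latter was 1.09, called in each case. Under median-of-ratios scaling the 6-month and the UBR4 mKO age differences were -1.04 and 0.99 and were called, while the WT age difference of 0.47 was not (limma adjusted p = 0.114).

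The other called ligands were Wnt9a, at 0.47 between genotypes at 6 months (0.12 and not called under median-of-ratios scaling), and Wnt5b, a non-canonical ligand, at 1.08 with age in UBR4 mKO (limma adjusted p = 0.0413). The genes of WNT secretion were Porcn, which attaches the lipid, and Wls, which carries WNT proteins to the cell surface. Both were called higher in 6-month UBR4 mKO (0.34 and 0.61), as were 37.7% of all genes (median gene 0.34). With age in WT both were called higher too (0.52 and 0.47), as were 18.6% of all genes. Under median-of-ratios scaling Porcn was at -0.0022 and Wls at 0.26 between genotypes at 6 months, with only Wls called (limma adjusted p = 0.0485), and neither was called with age in WT (0.26 and 0.20). Of 16 receptors and co-receptors tested 1 was called, the co-receptor Ptk7, at 0.81 between genotypes at 6 months (38.8% of all genes were) and -1.10 with age in UBR4 mKO (6.49%). Its 6-month call was lost under median-of-ratios scaling (0.54, limma adjusted p = 0.0516) and without mitochondrial genes (0.69), and its age call was not. Ryk, the most abundant receptor among the uncalled, differed by 0.033 at 6 months (limma adjusted p = 0.776), and by -0.32 and called under median-of-ratios scaling (limma adjusted p = 0.00315). Of 3 genes tested of the R-spondin axis, Znrf3, a ligase that removes frizzled receptors, was called at 0.59 with age in WT (0.34 and not called under median-of-ratios scaling). None of the tested genes of these or the following lists was called between genotypes at 24 months, where 0.595% of all genes were. Under median-of-ratios scaling Wnt10b, a canonical ligand, was called there at 1.14 (limma adjusted p = 0.0411).

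Downstream of the receptors, 5 of 15 genes of intracellular transduction were called higher in 6-month UBR4 mKO (37.7% of all genes), among them Dvl1, which relays the receptor signal, at 0.55 and Ctnnb1, which encodes β-catenin, at 0.32. The list's median was 0.33, beside 0.34 for all genes, and under median-of-ratios scaling none of the 5 was called (Dvl1 at 0.20 and Ctnnb1 at -0.03). Of 7 nuclear effectors Tcf7l2 (0.59) and Pygo2 (0.52) were called higher at 6 months. Of 9 WNT target genes tested, Axin2 among them, Nkd2 (0.57) and Myc (1.01) were called in that comparison. Of these 4 genes only Myc was called under median-of-ratios scaling (0.68, against 0.29 for Tcf7l2, 0.18 for Pygo2 and 0.27 for Nkd2) and without the fourth 6-month UBR4 mKO sample (1.04). Myc was at 0.936 to 1.48 TPM in 6-month WT, 2.32 to 2.65 TPM in 6-month UBR4 mKO, 3.11 to 4.07 TPM in 24-month WT and 1.92 to 2.71 TPM in 24-month UBR4 mKO. In UBR4 mKO it thus lay above WT at 6 months and below it at 24 months (the latter not called, limma adjusted p = 0.0940), a difference between the 2 genotype effects of -1.61 (limma adjusted p = 0.000767), or -1.29 and also called under median-of-ratios scaling.

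DKK3 has been linked to the FOXO factors and the atrophy ligases Fbxo32 (atrogin-1) and Trim63 (MuRF1), 2 of a list of 7. They were called higher with age in WT by 0.88 (limma adjusted p = 0.0185) and 1.03 (limma adjusted p = 0.0138), but neither was called under median-of-ratios scaling (0.61 and 0.76). Between genotypes they differed by 0.38 and 0.51 at 6 months (limma adjusted p = 0.201 and 0.120) and by -0.26 and -0.25 at 24 months (limma adjusted p = 0.806 and 0.844). Fbxo30, another ligase of atrophy, was called at 0.87 between genotypes at 6 months and 0.90 with age in WT, and was called under median-of-ratios scaling too. Fbxo21, of the same list, was called at 0.37 and 0.46 in these comparisons (limma adjusted p = 0.0450 and 0.0310) but not under that scaling (0.025 and 0.19). For Fbxo30 the difference between the 2 genotype effects was called as well (-0.95, limma adjusted p = 0.0228). It was -0.62 and called under median-of-ratios scaling, and -0.75 and not called without mitochondrial genes. Myc and Fbxo30 made up the 3.12% called there of the pathway and atrophy lists, beside 3.51% of all genes. In all, 16 of the 64 other genes tested in the pathway and atrophy lists were called between genotypes at 6 months, beside 38.8% of all genes, and 11 with age in WT, beside 19.6%. Under median-of-ratios scaling 12 (18.8%) and 3 (4.69%) of the 64 were called, beside 14.5% and 8.54% of all genes. These included 4 of the 16 and 2 of the 11. With the Y-linked covariate all 16 and 8 of the 11 were called, and 8 of the 16 without the fourth 6-month UBR4 mKO sample. The other 8 called at 6 months under that scaling were each at a value under 0: Ryk, Fzd8, Fzd9, Rspo3, Gsk3a, Pygo1, Apcdd1 and Foxo4. With age in WT the added one was Wnt10b, at -0.84 (limma adjusted p = 0.0450).

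**Figure D4:**
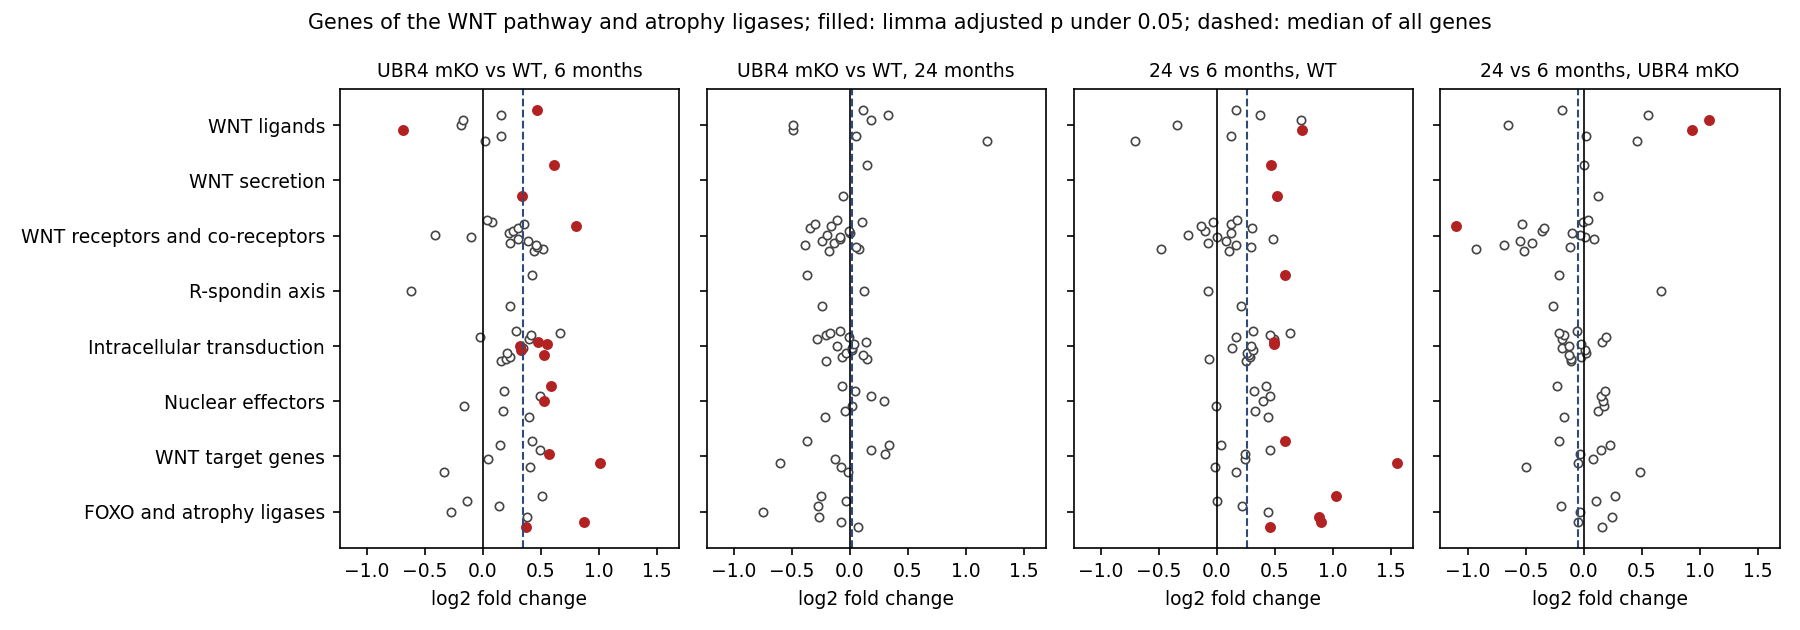
Log2 fold changes on the log2(TPM + 0.1) scale of the tested genes in 8 lists in 4 comparisons; each point is a gene, filled points are called by limma, and the dashed line is the median of all genes tested. Most lists are spread around the dashed line, at 0.34 in 6-month UBR4 mKO against WT, Wnt4 is the 1 called gene under 0 there on this scale (-0.69), and no gene is filled in the comparison of genotypes at 24 months.

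Lastly, genes were ranked by how closely their log2 values, centred on the mean over the 16 samples, followed those of Dkk3, which is a description of these samples. Over 10107 genes with a mean of at least 1 TPM, the root mean square difference from Dkk3 had a median of 1.55. The 5 nearest genes were Ostn (0.83), which encodes the muscle-secreted peptide musclin, Fgfbp1 (0.84), a secreted carrier of fibroblast growth factors, Mss51 (0.87), a mitochondrial protein of fast muscle, Ighg2c (0.88), an immunoglobulin heavy chain, and Slc2a3 (0.90), a glucose transporter. Ostn was at 9.71, 8.71, 9.50 and 5.71 TPM in 6-month WT and at 2.51, 2.45, 2.85 and 5.47 TPM in 6-month UBR4 mKO, with the fourth samples of both groups close to each other. At 24 months it was at 49.2, 19.7, 56.5 and 20.5 TPM in WT and at 23.8, 31.2, 40.0 and 23.3 TPM in UBR4 mKO, so the genotypes overlapped, unlike for Dkk3. Fgfbp1 was also low in the fourth 24-month UBR4 mKO sample, at 0.713 TPM against 2.26 to 3.14 TPM in the other 3. Of the pathway lists Wnt4 was nearest (1.09, with 23 genes closer), and of the 8 other genes described here Sfrp5 was nearest (1.22, with 73 closer) and Wif1 farthest (2.13, with 10049 closer).

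**Figure D5:**
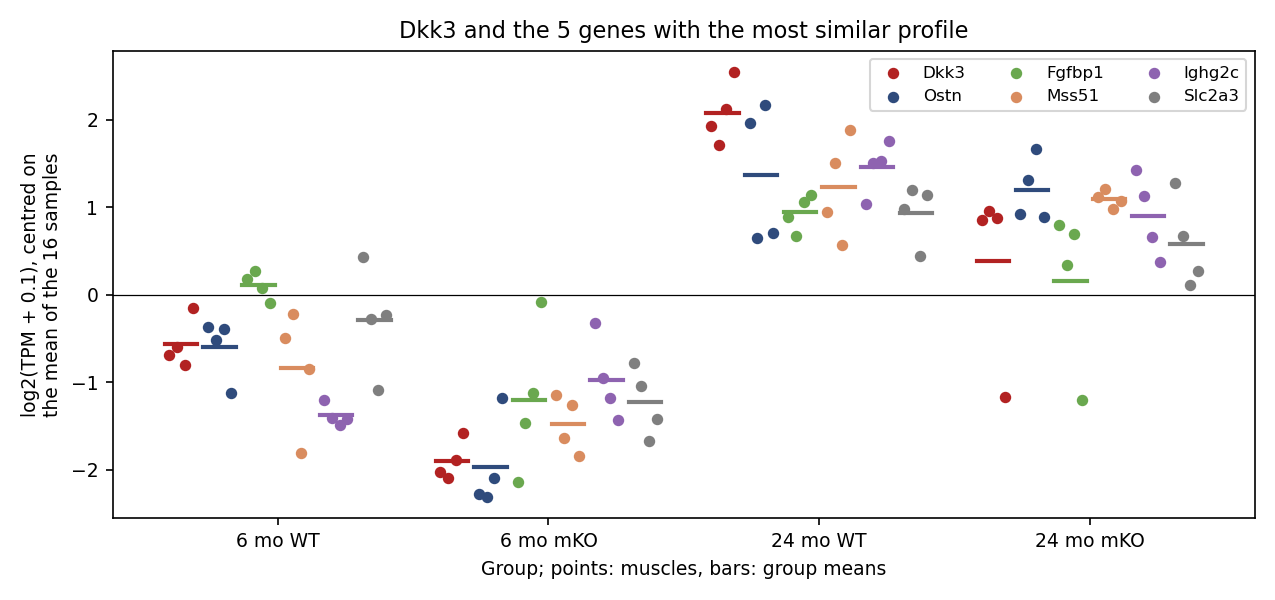
Centred log2(TPM + 0.1) values of Dkk3 and the 5 genes with the smallest root mean square difference from it, by group; points are muscles and bars group means. All 6 genes lie mostly above 0 at 24 months, and the fourth 24-month UBR4 mKO sample is far below the other 3 of its group for Dkk3 and Fgfbp1.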

How the data were processed

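RNA was sequenced from tibialis anterior muscles. Paired-end reads had been trimmed and aligned to GRCm38/mm10 with CLC Genomics Workbench, and the authors deposited TPM values per gene. The annotation release, the use of strand and the treatment of multiply matching reads are not given in the sources used here. TPM keeps no depth, so intervals cover the spread between samples only. Labels gave the groups, and 16 mice, 4 per group, were taken as replicates. Correlations of log2 values within groups ranged from 0.971 to 0.991 over genes, and 0 sample pairs were identical.

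The 14453 genes with a mean of at least 0.1 TPM were fitted as log2(TPM + 0.1) with limma 3.58.1 (R 4.3.3), using 1 coefficient per group, a variance trend and Benjamini-Hochberg adjustment. On simulated data the fit was checked before use. TPM of single genes was also compared by exact permutation, two-sided, over 70 assignments (scipy 1.17.1). Positions are from GENCODE vM21, similar transcripts were searched with minimap2 2.31, and Python 3.11.15 with matplotlib 3.10.9 drew the figures.

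The 9 genes, the gene lists and the alternatives were chosen with earlier results of these data known. Named besides the 9 are Ubr4, sex-linked genes, called or most abundant genes of the lists, and the 5 genes most like Dkk3 (mean of at least 1 TPM, placeholder symbols left out). Alternatives were pseudocounts of 1 and 0.01, a mean of at least 1 TPM, no filter, median-of-ratios scaling, mitochondrial genes left out, only the groups compared, no variance trend, robust variances, array weights, the Kruskal-Wallis and Dunn tests named in the study's methods, a replicate block, a covariate from Y-linked genes, libraries with Xist over 1 TPM left out, and 16 fits without 1 sample each. Same-numbered samples of different groups deviated together only weakly (24 pairs, correlations from -0.193 to 0.137, 2 above 0.1), so numbers were not taken as pairs. Proteomic, cell culture and fly data of the study were not used here.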

Additional observations from a re-analysis of the deposited data

Results flagged for a closer look

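In 7 of 36 groups of 4 values (9 genes in 4 groups) the highest or lowest sample stood so far from the rest that Dixon's 95% limit was passed, where chance gives about 1 in 20, or 1.8. The first 24-month UBR4 mKO sample was such for 4 genes: Dkk2 (1.89 TPM, others 0.346 to 0.491 TPM), Sfrp2 (1.23 TPM, others 0.144 to 0.265 TPM), Sfrp4 (5.6 TPM, others 0.535 to 0.919 TPM) and Wif1 (0.698 TPM, others 0.0978 to 0.158 TPM). In the same group, Dkk3 stood apart in the fourth sample (1.67 TPM, others 7.10 to 7.63 TPM). Sfrp4 was at 1.78 TPM in the second 24-month WT sample, with the others at 0.627 to 0.796 TPM. Axin2 was at 2.28 TPM in the fourth 6-month UBR4 mKO sample, the one lowest in Y-linked RNA (Ddx3y 0.073 TPM), with the others at 1.94 to 1.98 TPM.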

How the results depend on the processing

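The lower Dkk3 level in 6-month UBR4 mKO kept its direction in all 29 alternatives and its call in 28 of them. The exception was Dunn's comparison, whose adjusted p was 0.233 for the same difference of -1.34. The age difference of Dkk3 in UBR4 mKO was 1.67 with a pseudocount of 1, in place of 2.28, and its 6-month genotype difference -0.87 in place of -1.34. With the replicate block, Dkk3 at 6 months was at -1.34 (limma adjusted p = 0.0170), and the block changed no call among the 9 genes. Same numbers were not taken as pairs. Of the other 8 genes, 1 was called between genotypes at 6 months with array weights and with only the groups compared. With age in WT 1 was called with the Y-linked covariate, a mean of at least 1 TPM, median-of-ratios scaling and mitochondrial genes left out. Dunn's comparison called 0 with age in either genotype, as it did of all genes there. At a mean of at least 1 TPM fewer of the 8 genes were tested.

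Leaving out 1 sample at a time gave Dkk3 differences from -1.44 to -1.20 between genotypes at 6 months, from -1.89 to -1.18 at 24 months, from 2.49 to 2.78 with age in WT and from 2.09 to 2.80 with age in UBR4 mKO. The Dkk3 difference between genotype effects ran from -0.55 to 0.16 and turned positive only without the fourth 24-month UBR4 mKO sample. Counts of the other 8 genes called ran from 0 to 1 between genotypes at 6 months, from 0 to 3 with age in WT and from 1 to 2 with age in UBR4 mKO. Uncalled differences that changed sign in these fits were, between genotypes, those of Dkk2 at 6 months (-0.19 to 0.050) and at 24 months of Dkk2 (-0.060 to 0.66), Sfrp1 (-0.13 to 0.38), Sfrp2 (-0.21 to 0.61), Sfrp4 (-0.28 to 0.78) and Frzb (-0.29 to 0.032). With age they were Sfrp4 in WT (-0.40 to 0.16), and in UBR4 mKO Sfrp4 (-0.62 to 0.44) and Axin2 (-0.33 to 0.087). For the difference between genotype effects they were Sfrp2 (-0.69 to 0.13), Sfrp4 (-0.53 to 0.52) and Wif1 (-0.32 to 0.45).

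Other uncalled differences changed sign under median-of-ratios scaling: Sfrp4 (-0.067), Frzb (-0.11) and Axin2 (-0.24) between genotypes at 6 months, Frzb (-0.080) and Axin2 (-0.018) with age in WT, and Sfrp2 (0.10) for the difference between genotype effects. With mitochondrial genes left out, Frzb (-0.010) and Axin2 (-0.15) did so between genotypes at 6 months and Frzb (-1.8e-05) with age in WT. Array weights turned Sfrp5 (0.0079) between genotypes at 6 months and Axin2 (0.061) with age in UBR4 mKO, the Y-linked covariate Sfrp4 with age in WT (0.043), and a pseudocount of 0.01 the difference between genotype effects of Wif1 (-0.031). Apart from the scalings, the cause was not tested.

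Counts over all genes moved as well, from 5601 to 2098 between genotypes at 6 months and from 2840 to 1234 with age in WT under median-of-ratios scaling, and from 86 to 9 between genotypes at 24 months with only those groups in the fit. Array weights raised the 3 counts to 7966, 6571 and 259. With 1 sample left out they ran from 3074 to 7192 and from 1083 to 5141 (lowest without replicate 4, highest without replicate 2 of 6-month WT) and from 27 to 94 (lowest without replicate 1 of 24-month WT), and the shares of all genes printed beside the members move with them. Libraries with Xist over 1 TPM could be left out only for the genotypes at 24 months, where none was above it, since no 6-month WT sample lay below it. Depth is unknown.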
